A study of Mus musculus with 9 samples.

Results

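Splenic monocytes from water-gavaged mice, the control group of a study of gut bacterial lipids and systemic innate immunity, were profiled by RNA sequencing in 3 libraries named Con 1, Con 2 and Con 3. These were the 3 Con libraries among the 9 libraries of the whole series, and they were chosen by the water gavage given in their labels. The mice were female C57BL/6 animals aged 8 to 10 weeks that received water by gavage over 6 days, followed by a rest that the labels give as 6 to 8 days and the study as 8 days for the RNA samples, and got neither vancomycin nor the L654 lipid. The study selected 3 mice of this group for RNA sequencing but does not spell out that each library is 1 mouse, so the errors given describe the spread between the 3 libraries. The monocytes were enriched from spleen by magnetic negative selection and lysed without stimulation in culture. Values are FPKM, a fragment count scaled to transcript length and to the number of mapped fragments, and values for the 3 libraries are always given in the order Con 1, Con 2 and Con 3. No other group was compared, so the levels are a description with no test.

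Monocytes are short-lived phagocytes that leave the bone marrow through the chemokine receptor Ccr2, circulate, and are also stored in the spleen. In mice they form a Ly6C-high classical subset, which enters inflamed tissue and becomes macrophages or dendritic cells, and a Ly6C-low nonclassical subset, which patrols vessel walls, carries Cx3cr1 at a high level and depends on the nuclear receptor Nr4a1. Both subsets need signals through Csf1r, the receptor of macrophage colony-stimulating factor.

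The total expected count was 51783162, 59339748 and 43070361, and the summed FPKM lay between 393225 and 400664. Of 46072 rows in the table, 22784 were above 0 in at least 1 Con library and 17977 in all of them. A mean of at least 1 FPKM was reached by 11686 genes, of which 9979 (85.4%) were protein coding, a mean of at least 10 FPKM by 5470 genes and a mean of at least 1000 FPKM by 38 genes. Over the 11686 genes the libraries correlated pairwise with Pearson's r between 0.988 and 0.989 and Spearman's coefficient between 0.984 and 0.986 on the log2(FPKM + 1) scale, across genes, which are not independent replicates. If 1 count were 1 fragment, a gene with no count in a library could still have been present at up to 3 counts. That is 0.0506 to 0.0697 on the scale of counts per 1000000, and such limits cover counting error only. The commonest count between 0.5 and 4 was, however, 1.33, 1.33 and 2.67, so an expected count was not 1 fragment. The limits are therefore likely too low, and the total counts are not numbers of fragments. The mice were labelled female, and the X-inactivation transcript Xist was at 25.6, 24.8 and 25.5 FPKM, while Eif2s3y, Ddx3y and Uty on the Y chromosome were listed at 0 and Kdm5d averaged 8.90e-05 FPKM.

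All 5 monocyte markers were abundant in every library. Nr4a1 (chr15:101254269-101274795, GRCm38, + strand) was at 1093, 1141 and 1185 FPKM and ranked 30 of all genes. Csf1r was at 577, 528 and 587 FPKM and ranked 95. Ly6c2, which encodes the Ly6C surface antigen (chr15:75108158-75111970, - strand), was at 398, 414 and 377 FPKM and ranked 148. These 3 markers therefore lay within the 150 most abundant genes by mean FPKM, and their library ranges did not overlap each other. Ccr2 was lower, at 173, 163 and 159 FPKM, with rank 362. Cx3cr1, the fractalkine receptor, was the lowest of the 5, at 116, 125 and 118 FPKM, with rank 494. The coefficient of variation (CV, the SD over the mean of the 3 libraries) ran from 3.75% for Cx3cr1 to 5.67% for Csf1r, beside a median of 6.16% over the 5470 genes at a mean of at least 10 FPKM, 5.36% at 100 to 1000 FPKM and 5.64% at 1000 FPKM or more.

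**Figure D1:**
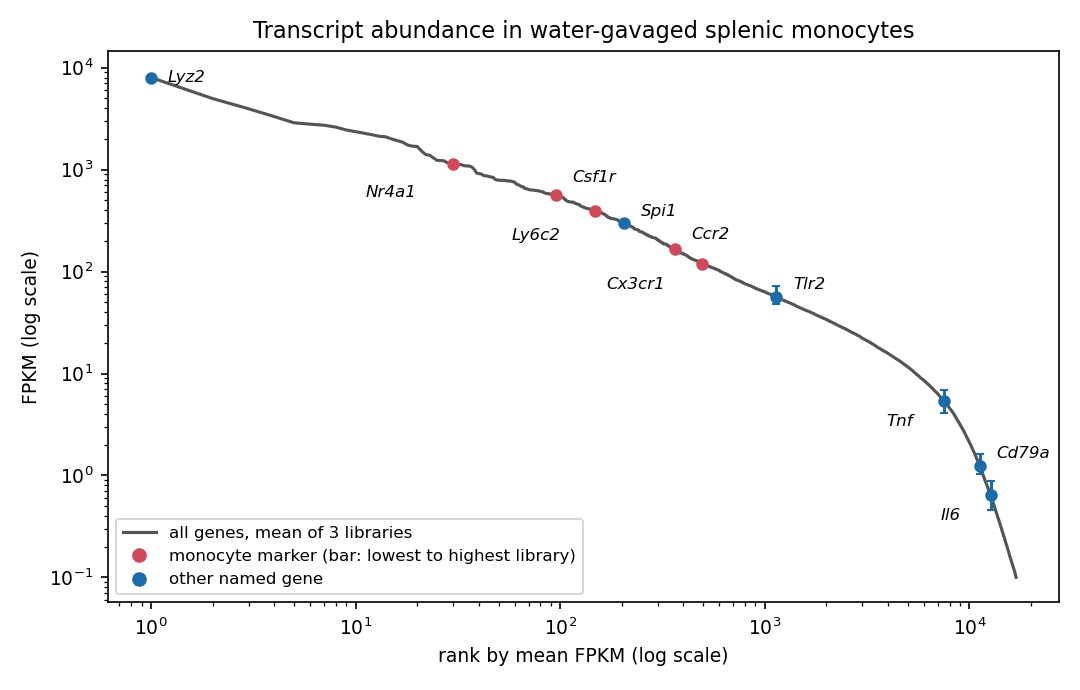
Mean FPKM of each gene in the 3 Con libraries against its rank, both on log scales, for genes at a mean of at least 0.1 FPKM. Points mark named genes, with bars from the lowest to the highest library. The 5 monocyte markers (red) lie between rank 30 (Nr4a1) and rank 494 (Cx3cr1), above the Toll-like receptor gene Tlr2 at rank 1138, and the B cell gene Cd79a and the cytokine gene Il6 lie near 1 FPKM.

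Ly6C is encoded by a pair of neighbouring, nearly identical genes, and their separation rests on few bases. Ly6c2 was at 398, 414 and 377 FPKM, whereas its copy Ly6c1 (chr15:75044018-75048830, - strand) was at 39.9, 42.4 and 42.3 FPKM, which is a ratio of 9.55 ± 0.548 (SD, n = 3). The transcripts Ly6c2-201 and Ly6c1-201 aligned over 822 bases with 97.6% identity and 20 mismatches, and 9 of 393 coding bases differed. The first 90 coding bases are shown, since they hold 6 of these 9 differences, which are in capitals:
Ly6c2: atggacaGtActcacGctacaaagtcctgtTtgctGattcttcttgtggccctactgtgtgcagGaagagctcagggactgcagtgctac
Ly6c1: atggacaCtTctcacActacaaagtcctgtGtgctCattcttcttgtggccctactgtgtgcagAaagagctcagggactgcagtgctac
A read that crosses none of the differing positions fits both genes, so the split between the 2 levels is less certain than their sum.

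The classical and nonclassical monocyte genes were present at similar summed levels. The 16 genes of the classical list summed to 3907, 3893 and 3520 FPKM and the 16 genes of the nonclassical list to 4058, 3802 and 4334 FPKM. Single genes weighed heavily in both sums. On average Plac8 gave 1153 of 3773 FPKM in the classical list, and Nr4a1 gave 1139.7 of 4065 FPKM in the nonclassical list. The ratio of the sums was 0.963, 1.02 and 0.812, with a mean of 0.933 ± 0.109 (SD, n = 3). The ratio of the list medians was 1.04 ± 0.202, on the other side of 1, so neither list was clearly the higher one. Con 2 was the only library in which the classical sum was the higher one, and Con 3 was the library furthest to the nonclassical side. The highest library was Con 2 for 9 of the 16 classical genes and Con 3 for 11 of the 16 nonclassical genes. Over all 5470 genes at a mean of at least 10 FPKM, Con 2 was highest for 25.2% and Con 3 for 42.9%. In bulk RNA, fewer cells of a subset and less RNA per cell cannot be told apart.

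Among the classical genes the most abundant was Plac8, a small cysteine-rich protein of myeloid cells, at 1236, 1069 and 1153 FPKM. S100a4, a calcium-binding protein linked to cell motility, was at 591, 659 and 527 FPKM. Fn1, the matrix protein fibronectin, was at 309, 349 and 284 FPKM and was the list member nearest below Ly6c2. The ranges of these genes and Ly6c2 did not overlap in that order. Chil3, a secreted chitinase-like lectin, stood apart because Con 3 was low, with 326, 303 and 159.6 FPKM and a CV of 34.3%. F13a1, the A chain of coagulation factor XIII, was high in Con 2 alone, at 106, 157 and 96.0 FPKM. Hp (haptoglobin) at 159.9 FPKM, Cd14 (the lipopolysaccharide co-receptor) at 151 FPKM and Mgst1 (a microsomal glutathione transferase) at 129 FPKM on average followed directly below Ccr2. Vcan, the proteoglycan versican, was the lowest of the list at 4.82, 5.23 and 2.62 FPKM.

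Below Nr4a1, the nonclassical list was led by Ace and Itgal. Ace, angiotensin-converting enzyme, was at 485, 403 and 554 FPKM, with Con 2 the lowest and Con 3 the highest. Itgal, the alpha chain of the integrin LFA-1, was at 480.3, 417 and 472 FPKM, and Ear2, an eosinophil-associated ribonuclease, at 335, 369 and 351 FPKM. Treml4, a receptor that binds dying cells, was at 221, 214 and 237 FPKM, and Adgre4, an adhesion G protein-coupled receptor, at 230.1, 196 and 239 FPKM. Con 2 was the lowest library for Ace, Itgal, Treml4 and Adgre4, whereas Ear2 was highest there. Around Cx3cr1 lay Spn (CD43) at 205 FPKM, Pglyrp1 (a peptidoglycan-binding protein) at 146 FPKM and Fcgr4 (an activating Fc receptor) at 132 FPKM above it, and Eno3 at 119 FPKM, Apoc2 at 114 FPKM and Cd300e at 104 FPKM below it. The lowest member, Itgax (CD11c), was still at 73.7, 69.5 and 82.4 FPKM, so that no nonclassical gene was as low as Vcan.

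**Figure D2:**
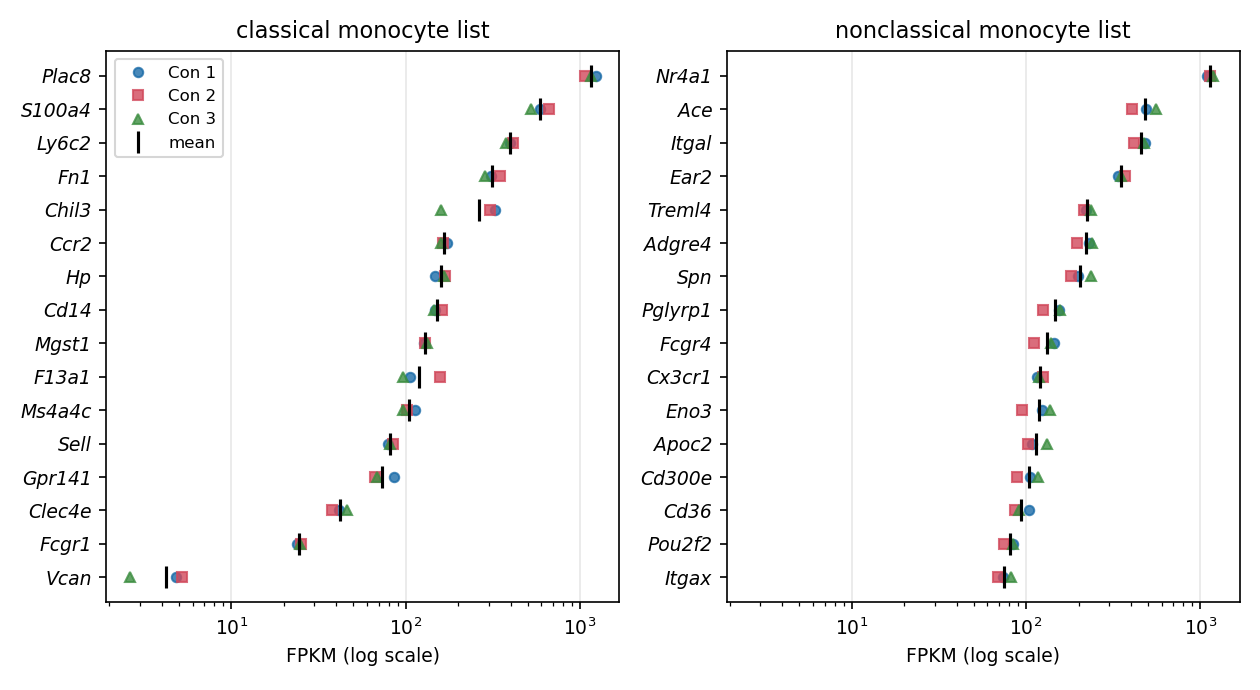
FPKM on a log scale for the 16 genes of the classical monocyte list (left) and the 16 genes of the nonclassical list (right), with 1 symbol per library and a black bar at the mean. The libraries lie close together for most genes, Chil3 and Vcan are low in Con 3, and F13a1 is high in Con 2.

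Genes of mononuclear phagocytes in general were at higher levels than those of either subset. The 18 genes of this list summed to 19531, 19357 and 18954 FPKM, which was 4.87 ± 0.122% of all FPKM (SD, n = 3). Lyz2, the secreted lysozyme of macrophages (chr10:117277331-117282321, - strand), was the most abundant of all genes at 8052, 8324 and 7663 FPKM and took 2.02% of the summed FPKM alone. Psap, the precursor of the lysosomal saposins, was at 2685, 2769 and 2730.3 FPKM. Tyrobp, the signalling adaptor DAP12, was at 1294, 1214 and 1179.8 FPKM. Cst3, the protease inhibitor cystatin C, and Ctss, the lysosomal protease cathepsin S, averaged 1131 and 1084 FPKM. Laptm5, a lysosomal membrane protein, and Fcer1g, the common Fc receptor gamma chain, averaged 786 and 774 FPKM, and Aif1 was lowest at 90.6 FPKM. No member of the list had a CV above 8.73%, the value of Fcer1g.

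Transcripts of antigens that the isolated cells carry, or that the negative selection targets, were checked next. Itgam (CD11b), which the monocytes carry, was at 202, 200.1 and 214 FPKM, and Ptprc, the CD45 gene whose B cell form the kit removes, was at 454, 403 and 440 FPKM. The genes of the other depleting targets were all below 1 FPKM on average. Kit (CD117) averaged 0.8334 FPKM, Cd3e 0.465 FPKM, Siglecf 0.179 FPKM and Klrb1c (NK1.1) 0.150 FPKM. Ly6g was listed at 0 in all 3 libraries.

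A small number of genes made up much of the FPKM. The 10 most abundant genes held 9.11 ± 0.202%, the 100 most abundant 30.2 ± 0.376% and the 1000 most abundant 64.9 ± 0.126% (SD, n = 3) of the summed FPKM, which weights a short transcript like a long one. Of the top 100 in each library, 94 genes were shared by all 3 libraries. Behind Lyz2 came mt-Co1, a subunit of cytochrome c oxidase encoded in mitochondria, at 4698, 5263 and 4984 FPKM. Tmsb4x, thymosin beta 4, which binds actin monomers, was at 4037, 3890.2 and 3927 FPKM. The ferritin light chain Ftl1 was at 3002, 3314 and 3635 FPKM and the heavy chain Fth1 at 1879.6, 1921 and 1973 FPKM, both highest in Con 3. B2m, the light chain of MHC class I, was at 3067, 2629.7 and 2947 FPKM, and Eef1a1, a translation elongation factor, at 2794, 2784 and 2801 FPKM. Eef1a1 differed by less than 1% between libraries, whereas B2m was lowest in Con 2.

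The other genes among the 30 most abundant protein-coding ones had varied roles. Ly6e, a GPI-anchored member of the Ly6 family, averaged 1520.1 FPKM, and Ifitm3, a membrane protein that restricts virus entry, 1302 FPKM. Apoe, the lipid carrier apolipoprotein E, was at 1081, 1205 and 1409.8 FPKM, highest in Con 3. Tpt1, a translationally controlled protein that binds calcium, averaged 1407 FPKM. The beta and gamma actins Actb and Actg1 averaged 2101 and 1171 FPKM, and Tmsb10 averaged 1134 FPKM. The thirtieth was Zfp36, a protein that destabilises AU-rich messenger RNAs, at 976, 1377 and 917 FPKM, with Con 2 above both other libraries.

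Of the 20 most abundant genes, 4 were annotated as unprocessed pseudogenes, and all 4 were nuclear copies of mitochondrial genes in a stretch of chromosome 1. Gm29216 (chr1:24615706-24616197, - strand) was at 2537, 2783 and 2515 FPKM, Gm10925 (chr1:24613974-24614651) at 2348, 2551 and 2453 FPKM, Gm28661 (chr1:24614885-24615565) at 1875, 2101 and 2024 FPKM, and Gm28437 (chr1:24613189-24613971) at 1590.4, 1779 and 1692 FPKM. Their mitochondrial counterparts mt-Atp6, mt-Co2 and mt-Co3 were at 2265, 2447.5 and 2353 FPKM, at 1997.0, 2242 and 2137 FPKM and at 1597.6, 1791 and 1703 FPKM, each with the same order of libraries as its copy. Gm29216 was lowest in Con 3, whereas its counterpart mt-Co1 was lowest in Con 1. Gm10925 matched mt-Atp6 at 100% identity over 678 bases, Gm28661 matched mt-Co2 over 681 bases and Gm28437 matched mt-Co3 over 783 bases, with no mismatch. Gm29216 differed from mt-Co1 at 6 of 492 bases, all within its start, which is shown with the differing bases in capitals:
Gm29216: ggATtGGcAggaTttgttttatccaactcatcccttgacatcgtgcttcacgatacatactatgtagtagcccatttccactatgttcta
mt-Co1: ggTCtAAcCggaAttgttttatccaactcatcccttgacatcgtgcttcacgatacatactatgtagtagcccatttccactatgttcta
Reads from the identical stretches fit both places, so the values of these pseudogenes cannot be told apart from those of the mitochondrial genes, and the class of unprocessed pseudogenes took 2.81 ± 0.126% of all FPKM (SD, n = 3).

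Among families, the cytosolic ribosomal proteins held the largest share of those examined. Their 86 genes held 9.83 ± 0.207% of all FPKM (SD, n = 3), and 84 of them were at a mean of at least 1 FPKM. Rps29 was the most abundant, at 1139, 1107 and 1018 FPKM, followed by Rps9 at 1006 FPKM and Rpl10 at 927 FPKM on average, while the testis form Rpl10l was listed at 0. The median CV of the family was 2.54%, beside 6.16% over the 5470 genes at a mean of at least 10 FPKM and 5.36% over genes at 100 to 1000 FPKM. The 13 protein-coding genes of the mitochondrial genome held 5.57 ± 0.280%, from mt-Co1 down to mt-Nd3 at 329 FPKM, and none of the 13 was highest in Con 1, where 31.9% of the 5470 genes at a mean of at least 10 FPKM were. The FPKM given to the near-identical copies on chromosome 1 is not in this share and cannot be told apart from it. The 83 nuclear genes of the respiratory chain held 1.14 ± 0.0192%, led by Cox4i1 at 217 FPKM and Atp5b at 168 FPKM, and the heart, muscle or testis forms Cox8b, Cox8c and Cox7b2 were listed at 0.

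The actin cytoskeleton list of 24 genes held 4.01 ± 0.0837% of all FPKM. Coro1a, a leukocyte actin-binding protein, averaged 786 FPKM and Pfn1, profilin, 759 FPKM. The lysosome and cathepsin list of 23 genes held 4.14 ± 0.0683%, with Ctsb at 552 FPKM and Lamp1 at 412 FPKM below the members already named. The sums of these groups ranged over 1.04-fold and 1.01-fold between libraries. Translation factors held 1.92 ± 0.0239% and 15 glycolytic genes 0.410 ± 0.0159%, with Gapdh at 282, 294 and 307 FPKM, Eno1 at 261 FPKM and Pkm at 258 FPKM. Proteasome subunits held 0.436 ± 0.00698%, led by Psma7 at 140.4 FPKM, and the thymus subunit Psmb11 was listed at 0. Of 10 cell-cycle genes, Pcna averaged 65.4 FPKM, while Mki67, the classical proliferation antigen, was at 3.54, 3.81 and 5.00 FPKM.

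Antigen presentation genes were abundant and less steady. The MHC class I list of 13 genes summed to 6369, 5412 and 6545 FPKM, with H2-D1 at 1368, 1240.2 and 1542 FPKM and H2-K1 at 1087, 869.89 and 1225 FPKM. Con 2 was not the highest library for any of the 13 genes, while it was for 25.2% of the 5470 genes at a mean of at least 10 FPKM. The MHC class II list of 11 genes, which present peptides to CD4 T cells, summed to 5117.5, 3841 and 4269 FPKM, and Con 1 was the highest for 10 of 11 genes, against 31.9% of the 5470 genes. Cd74, the invariant chain, was at 2657, 1962 and 2209 FPKM. The antigen-binding chains followed at lower levels, with H2-Aa at 943, 711 and 760.3 FPKM, H2-Ab1 at 721, 549.9 and 629 FPKM and H2-Eb1 at 549.8, 427 and 474 FPKM. Ciita, the master regulator of the class II genes, was at 18.7, 11.4 and 13.1 FPKM and had the highest CV of the list at 26.5%. In all these class II genes Con 1 lay above both other libraries.

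All 12 Toll-like receptor genes were above 1 FPKM on average. Toll-like receptors sense microbial lipids, proteins and nucleic acids at the surface or in endosomes, and TLR2 pairs with TLR1 or TLR6 to detect lipopeptides. The endosomal receptors Tlr13, which detects bacterial ribosomal RNA, and Tlr7, which detects single-stranded RNA, led at 91.1, 93.1 and 96.1 FPKM and at 93.2, 89.3 and 91.85 FPKM, and their ranges overlapped. Tlr2 followed at 71.7, 48.1 and 48.1 FPKM. Con 1 was therefore above both other libraries for Tlr2, whose CV of 24.3% was the largest among the 12 receptors. The partners of Tlr2 were lower, with Tlr1 at 15.3, 14.4 and 15.0 FPKM and Tlr6 at 11.8, 8.65 and 9.88 FPKM, and the ratio of Tlr2 to Tlr6 was 6.09, 5.56 and 4.87. Tlr8 averaged 42.4 FPKM, the DNA sensor Tlr9 29.7 FPKM and the lipopolysaccharide receptor Tlr4 8.35 FPKM. Tlr11, Tlr5, Tlr12 and Tlr3 lay between 2.68 and 1.02 FPKM. Of the 11 neighbouring pairs in this order, 8 did not overlap, and the overlapping pairs were Tlr13 with Tlr7, Tlr6 with Tlr4, and Tlr12 with Tlr3.

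Among the partners of these receptors, Unc93b1, the chaperone that carries endosomal Toll-like receptors, was highest at 308, 303 and 336 FPKM. Ly86, the partner of Cd180, averaged 187 FPKM, and Cd14 151 FPKM. Cd180, a Toll-like receptor homologue, averaged 72.9 FPKM, the adaptor Myd88 60.2 FPKM and the kinase Irak1 40.1 FPKM. Ly96 (MD-2), which TLR4 needs to bind lipopolysaccharide, was at 15.8, 15.0 and 14.5 FPKM, 1.81 ± 0.0844 times the level of Tlr4 (SD, n = 3). Tirap, the bridging adaptor of TLR2 and TLR4, was lowest at 5.55 FPKM. All 14 genes of this list were above 1 FPKM in the mean, and none was at 0.

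The cytosolic sensors were at moderate levels, and all 15 passed 1 FPKM on average. The inflammasome protease Casp1 averaged 58.0 FPKM, the DNA sensor Aim2 55.6 FPKM and the peptidoglycan sensor Nod1 52.4 FPKM. Naip5 and Naip2, which bind bacterial flagellin and secretion proteins, averaged 42.3 and 39.0 FPKM, and Nlrp3 41.4 FPKM. Of 12 C-type lectin receptors, Clec7a (Dectin-1), which binds beta-glucan, was highest at 269, 220.1 and 249 FPKM. The related Clec4a3 and Clec4a1 averaged 224 and 203 FPKM, Clec12a 85.9 FPKM, Clec4n (Dectin-2) 55.1 FPKM and the mannose receptor Mrc1 49.1 FPKM. For receptors of antibody and complement, Fcer1g and the integrin chain Itgb2 led at 774 and 482.5 FPKM, followed by Itgam, Fcgr3 at 201 FPKM and the other Fc receptors Fcgr4 and Fcgr2b at 132 and 81.4 FPKM.

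Chemokine receptors fell into 2 tiers. Cxcr4, which holds cells in bone marrow and spleen, was highest at 356, 451 and 419 FPKM, and its lowest library was above the highest library of Ccr2. Ccrl2, an atypical receptor, was at 118, 129.9 and 114 FPKM, and its range overlapped that of Cx3cr1. After these 4 genes the level was 18.8 FPKM for Ccr3 and 15.9 FPKM for Ccr7, the receptor that guides cells to lymph nodes. Ccr1 averaged 3.08 FPKM. Of the 20 genes, 12 were below 1 FPKM, and the neutrophil receptor Cxcr1 was listed at 0.

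**Figure D3:**
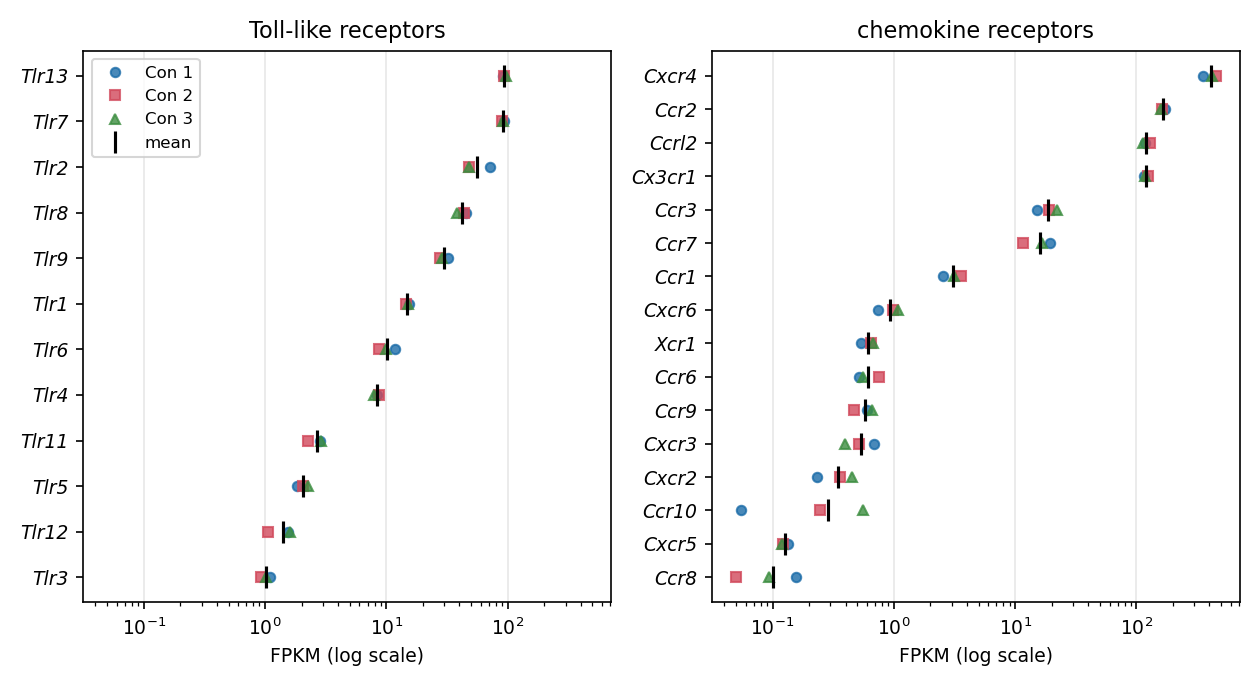
FPKM on a log scale for the Toll-like receptors (left) and the chemokine receptors at a mean of at least 0.1 FPKM and above 0 in every library (right, without 1 gene that is not reported here), with 1 symbol per library and a black bar at the mean. Tlr13 and Tlr7 lead the left panel, Tlr2 is highest in Con 1, and the right panel shows a gap between Cx3cr1 at 119.7 FPKM and Ccr3 at 18.8 FPKM.

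Of 27 receptors for cytokines and growth factors, 25 were above 1 FPKM. Behind Csf1r came Tnfrsf1b, the second TNF receptor, at 372, 316 and 338 FPKM, and Ifngr1, the ligand-binding chain for interferon gamma, at 309.95, 317 and 335 FPKM. Csf2ra, for GM-CSF, was at 204, 219 and 244.5 FPKM, and Il10ra, for the anti-inflammatory cytokine IL-10, at 203, 205 and 215 FPKM. Il17ra averaged 167 FPKM. Lower in the list, Csf3r averaged 87.5 FPKM and Il6ra, for IL-6, 61.3 FPKM, while the IL-1 receptor Il1r1 averaged 0.241 FPKM and its decoy Il1r2 4.86 FPKM.

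Among 23 lineage transcription factors, Nr4a1 was far above the others. Cebpb, a bZIP factor of myeloid cells that nonclassical monocytes need, was at 319, 359 and 345 FPKM. Spi1 (PU.1), the factor that sets macrophage identity, was at 303, 281 and 319.95 FPKM, and the ranges of Spi1 and Cebpb overlapped. Klf4, which monocyte differentiation requires, was at 167, 144 and 185.3 FPKM. Id2 averaged 111 FPKM and Irf8 90.4 FPKM. At the other end was Gfi1, a factor of granulocytes, at 0.163 FPKM. Nr4a1 was 2.88 ± 0.224 times Ly6c2 (SD, n = 3).

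Many of the 35 factors that respond to signals were abundant, others were low, and some differed sharply between libraries. Fos was the highest of 35 genes at 653, 1184 and 733 FPKM, with Con 2 well above both other libraries and a CV of 33.4%. Its partner Junb was steady at 568, 612 and 609.8 FPKM. Atf3, a stress-induced repressor, was at 348, 433 and 378 FPKM, and Klf2, a factor of quiescent and shear-stressed cells, at 203, 235 and 247 FPKM. Fosb averaged 222 FPKM and Irf5, an inducer of inflammatory genes, 197 FPKM, with a CV of 0.721% that was the lowest of the list. Nr4a1 belongs to the same class of genes that are induced within minutes of a stimulus, yet it did not share the Con 2 peak of Fos.

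Cytokine genes were mostly low, with a few exceptions. Tgfb1 was at 270.4, 272 and 268 FPKM and Il1b at 216, 167 and 174 FPKM, with Con 1 highest. Osm, a cytokine of the IL-6 family, averaged 49.6 FPKM, Il16 44.7 FPKM and Il18 42.8 FPKM, and Il1rn, the IL-1 receptor antagonist, 12.1 FPKM. Il6 averaged 0.642 FPKM and the IL-23 subunit Il23a was listed at 0. For chemokines, Ccl6 was highest at 299, 331 and 335 FPKM, followed by Ccl5 at 112, 97.4 and 122 FPKM and Ccl9 at 87.1, 106 and 89.3 FPKM. Cxcl2, a neutrophil attractant, was at 45.8, 112 and 72.7 FPKM, Ccl3 averaged 58.9 FPKM and Ccl2, the ligand of Ccr2, 22.3 FPKM. Cxcl2 and Ccl2 were both highest in Con 2 and lowest in Con 1.

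Calcium-binding S100 genes and interferon-linked genes were among the abundant effector groups. Besides S100a4, the S100 genes S100a11, S100a6 and S100a10 averaged 224, 189.53 and 81.9 FPKM. S100a8 and S100a9, which make up much of the cytosol of neutrophils and are common in classical monocytes, were low at 2.66 and 3.60 FPKM. In the interferon-induced list, Ifitm3 was followed by Ifitm2 at 639, 513 and 528 FPKM, Ifitm6 at 352 FPKM and Ifi27l2a at 331 FPKM.

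Transcripts of other cell types were present at very different levels. The list of red pulp macrophage genes had the largest sum, at 1632, 1929 and 2007.5 FPKM, and all 14 of its genes were above 1 FPKM. Red pulp macrophages clear old red cells and recycle their iron. Hmox1, which degrades haem, was at 496, 599 and 582 FPKM, and the iron exporter Slc40a1 at 132, 165 and 171 FPKM. The complement subunits C1qa, C1qc and C1qb averaged 243, 235 and 216 FPKM, and Vcam1, an adhesion molecule, 152 FPKM. Of the defining markers, Spic, the transcription factor of red pulp macrophages, was at 45.2, 42.96 and 45.5 FPKM, while Timd4 was lowest at 8.45 FPKM. Con 3 was highest for 10 of the 14 genes and Con 2 for the other 4, so Con 1 was highest for none. Over all 5470 genes at a mean of at least 10 FPKM, Con 3 was highest for 42.9%, Con 2 for 25.2% and Con 1 for 31.9%. Monocytes also transcribe several of these genes, and their part in the sum was not tested.

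The B lineage list was split between antibody genes and B cell surface genes. Igkc, the kappa constant region, was at 399.75, 481 and 518 FPKM, and Ighm, the mu constant region, at 325, 378 and 381 FPKM. Jchain, which joins secreted antibody chains, was at 35.6, 46.4 and 48.9 FPKM. These 3 genes made up most of the sum of 779, 924 and 968 FPKM, whereas the defining B cell genes Ms4a1 and Pax5 averaged 0.339 and 0.0810 FPKM. Cd79b averaged 9.32 FPKM, Cd22 5.62 FPKM and Cd79a 1.23 FPKM, and Vpreb3 was listed at 0. All antibody constant, variable and joining genes together, which were examined after the values were seen, took 0.241%, 0.183% and 0.0791% of the summed FPKM by class. Con 1 had the lowest level of Igkc, Ighm and Jchain.

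The T cell and NK cell lists were low in all libraries. The 12 T cell genes summed to 18.9, 15.5 and 21.2 FPKM, of which Cd4 alone gave 10.3, 8.30 and 11.0 FPKM, and 8 of the 12 were below 1 FPKM. Cd8a averaged 2.22 FPKM, Trbc2 1.79 FPKM, Trbc1 1.61 FPKM, Cd3g 0.895 FPKM and Trac 0.633 FPKM. The 10 NK cell genes summed to 20.5, 14.1 and 16.1 FPKM, mainly from Klrk1 at 11.1 FPKM and Klrd1 at 4.80 FPKM, while the defining receptor Ncr1 was at 0 in 2 of 3 libraries. Neutrophil genes were low apart from Csf3r, the G-CSF receptor, at 88.0, 88.0 and 86.5 FPKM, and Mmp8 at 14.4 FPKM. Ly6g and Stfa2 were listed at 0, so the neutrophil sum of 114, 118 and 116 FPKM came mainly from Csf3r. The level of Csf1r was 6.45 ± 0.406 times that of Csf3r (SD, n = 3).

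Dendritic cell genes were present at low to moderate levels. In the conventional dendritic cell list Cd83 averaged 108 FPKM, Cd209a 25.1 FPKM, Ccr7 15.9 FPKM, Cadm1 11.5 FPKM, Flt3 8.14 FPKM and Clec9a 2.62 FPKM, while Zbtb46 and Xcr1 averaged 1.51 and 0.618 FPKM. In the plasmacytoid list Bst2 averaged 60.1 FPKM and the defining gene Siglech 1.42 FPKM. The eosinophil list summed to 19.9, 26.0 and 28.8 FPKM, mostly from Ccr3, while Epx and Il5ra were each above 0 in only 1 library. The 11 platelet genes summed to 38.8, 29.9 and 47.5 FPKM, with Clec1b at 11.1 FPKM and Ppbp at 7.36 FPKM. Endothelial genes summed to 25.6, 23.1 and 26.1 FPKM with Emcn listed at 0, stromal genes to 2.08, 2.38 and 2.85 FPKM, and basophil and mast cell genes to 1.92, 1.29 and 1.34 FPKM with Fcer1a listed at 0.

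The globins Hba-a1 and Hbb-bs were at 41.4, 63.2 and 29.6 FPKM and at 35.1, 50.2 and 26.6 FPKM. Con 2 was the highest and Con 3 the lowest for all 4 globin genes, and the erythroid sum was 144, 209 and 106 FPKM. The transcripts of Hba-a1 and Hba-a2 matched at 99.8% over 538 bases, so their split is uncertain. Tfrc, the transferrin receptor, was steady at 3.80, 3.49 and 4.11 FPKM, and Alas2, the haem synthesis enzyme of red cells, averaged 0.561 FPKM.

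**Figure D4:**
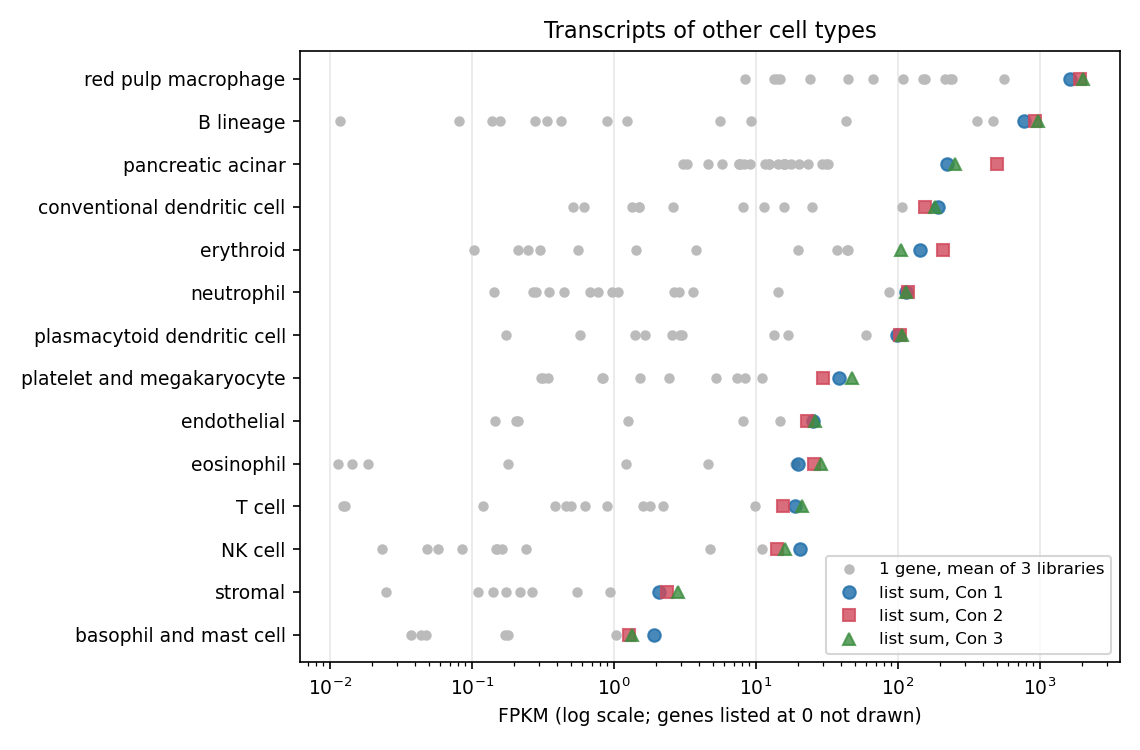
FPKM on a log scale for lists of genes of other cell types, with grey points for single genes (mean of 3 libraries) and coloured symbols for the list sum in each library. The red pulp macrophage sum is highest at 1632 to 2008 FPKM, the pancreatic acinar sum is set apart in Con 2, and the T cell and NK cell sums stay near 20 FPKM or below.

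The 3 libraries were close for most genes. Of the 5470 genes at a mean of at least 10 FPKM, the CV had quartiles of 3.78% and 9.69%, and 2180 genes had a highest library under 1.1 times the lowest, after 1 FPKM was added to both. Only 48 genes (0.878%) had a range of at least 2-fold. Con 1 was the highest library for 11 of these, Con 2 for 24 and Con 3 for 13, and 29 of the 48 were protein coding. Antibody genes, named here after their values were seen, made up 15 of the 48 and held the widest ranges, with Igkj5, a kappa joining segment, at 0.435, 42.98 and 2.68 FPKM and Ighg2c, a gamma constant region, at 9.61, 8.99 and 33.9 FPKM. Without Con 2 the number of genes with a range of at least 2-fold was 16, against 27 without Con 1 and 33 without Con 3. The median CV went from 37.1% for genes at 0.1 to 1 FPKM to 10.9% at 1 to 10 FPKM, 6.27% at 10 to 100 FPKM, 5.36% at 100 to 1000 FPKM and 5.64% over the 38 genes at 1000 FPKM or more, with median counts of 23.4, 509, 3588, 21949.9 and 103032. The spread was thus wider at lower counts up to the level of 100 to 1000 FPKM, with no further drop above it, and counting error and differences between samples were not separated.

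The 10 protein-coding genes with the lowest CV were Ak3, Sft2d1, Slc4a2, Wdr1, Fkbp2, Ppia, Aurkaip1, Yme1l1, Ddb1 and Eef1a1, all at or below 0.316%. Wdr1, an actin-disassembly factor, was at 102, 102 and 102 FPKM, and Ppia, cyclophilin A, at 276, 275 and 275.50 FPKM. The 10 with the highest CV were Erdr1, Gm21887, Amy2a1 to Amy2a5, Prss2, Clps and Hspa1a. Erdr1 was at 128, 44.2 and 56.2 FPKM and its X-linked relative Gm21887 at 119, 41.1 and 54.7 FPKM, both high in Con 1 alone. For Arhgap30, a regulator of small GTPases named here after its values were seen, 2 rows with CVs of 49.9% and 30.7% summed to 98.4, 102 and 110.4 FPKM with a CV of 5.94%, so the split between these rows varied more than their sum.

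Digestive enzymes made up 12 of the 48 genes with a range of at least 2-fold. This list of 23 genes of pancreatic acinar cells, which secrete enzymes into the gut, was written after the spread had been seen. It summed to 224, 502 and 254 FPKM, or 0.0570%, 0.128% and 0.0634% of all FPKM, and all 23 genes were highest in Con 2, against 25.2% of the 5470 genes, a count that the choice of the list fixed in part. Cela1 and Cela2a, elastases, were at 22.7, 45.9 and 28.5 FPKM and at 21.4, 47.6 and 24.99 FPKM. Ctrb1, chymotrypsinogen, was at 20.3, 43.3 and 24.6 FPKM, Pnlip, pancreatic lipase, at 16.0, 35.3 and 19.3 FPKM, and Prss2, a trypsinogen, at 11.6, 28.5 and 13.1 FPKM. The amylase genes Amy2a2, Amy2a3 and Amy2a4 are identical over 3717 bases, so their near-equal values, such as 10.5, 26.0 and 11.8 FPKM for Amy2a3, cannot be told apart. The near-identical Amy2a1 to Amy2a5 count as separate genes in the 12, the 23 and the 48 above. The pancreatic hormone genes Ins1, Ins2, Gcg, Sst and Ppy were listed at 0 in all libraries. The part of pancreatic tissue in these values was not tested.

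Several genes known to be induced by interferon gamma were higher in Con 1 than in the other libraries. Interferon gamma activates factors that bind GAS elements and raises IRF1, guanylate-binding proteins, immunity-related GTPases and antigen presentation genes. Of the 39 genes of this list, also written after the spread had been seen, 34 were highest in Con 1, where 31.9% of the 5470 genes were. Since the list was drawn up with this pattern in view, nothing is read from the count. Irf1 was at 218, 121 and 129.7 FPKM. Gbp2, a guanylate-binding protein, was at 82.2, 35.1 and 52.8 FPKM, Serpina3g, a protease inhibitor, at 87.0, 41.5 and 60.6 FPKM, and the chemokine Cxcl10 at 33.0, 15.6 and 15.8 FPKM. In each of these genes Con 2 was the lowest library. The list included Cd74, H2-Aa, H2-Ab1, H2-Eb1 and Ciita of the MHC class II group described above. Of 18 genes of a list induced by type I interferon, written at the same stage, 1 was highest in Con 1. Irf7 was at 111, 114 and 114 FPKM, Oasl2 at 50.6, 59.5 and 55.9 FPKM, and Mx1 at 25.7, 28.9 and 29.6 FPKM. Ifng itself was listed at 0 in all 3 libraries. Of the 10 NK cell genes, Klrk1 was highest in Con 1 at 13.7, 9.47 and 10.2 FPKM, as was Klrd1 at 5.97, 3.63 and 4.81 FPKM, whereas the other 8 were below 1 FPKM and highest in Con 2 or Con 3. The part of NK cells was not tested.

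The promoters of these genes were examined for the letters bound by interferon-activated factors. The windows below are from the RefSeq promoters on GRCm38.p6 and show the match in capitals with 30 bases on either side, for genes whose level was highest in Con 1. TTCNNNGAA is the GAS type, and GAAA, any 2 bases and GAAA again, on either strand, is the interferon-stimulated response element type:
Irf1 (chr11:53769894-53769962, + strand): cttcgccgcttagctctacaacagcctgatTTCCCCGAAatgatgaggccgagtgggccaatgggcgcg
Gbp2 (chr3:142620574-142620643, + strand): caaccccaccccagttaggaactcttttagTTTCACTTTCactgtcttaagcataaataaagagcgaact
Cxcl10 (chr5:92349063-92349132, - strand): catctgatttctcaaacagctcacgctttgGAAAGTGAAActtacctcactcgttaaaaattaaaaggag
The match began 90 bases before the start site in Irf1, 59 in Gbp2 and 213 in Cxcl10. In the 250 bases before the start site, on both strands, TTCNNNGAA was found in 12 of the 27 genes of the interferon gamma list that had a promoter in the table (44.4%), against 8.13% of all 27025 genes, and in 3 of 13 matched genes of the type I list (23.1%). The response element type was found in 11 of the 27 (40.7%), against 3.46% of all genes, and in 7 of 13 matched genes of the type I list (53.8%). These are counts of letters, and such genes are known for these elements, so the counts say nothing about binding in these cells.

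The immediate early genes summed to 7104, 8659 and 7568 FPKM, highest in Con 2, but the members were not highest in 1 library throughout. Of 32 genes, also listed after the spread had been seen, 10 were highest in Con 1, 9 in Con 2 and 13 in Con 3, near the shares over all 5470 genes of 31.9%, 25.2% and 42.9%. Dusp1, a phosphatase that turns off MAP kinases, was at 654.01, 1186 and 801 FPKM and resembled Fos, Zfp36 and Cxcl2 in its Con 2 peak. Nr4a1, Junb, Fosb and Ier2 had smaller ranges, with Fosb at 208, 210.4 and 249 FPKM and Ier2 at 157, 159 and 169 FPKM. Among 15 heat shock genes, Hspa1b was at 57.03, 28.7 and 83.3 FPKM and Hspa1a at 48.4, 24.9 and 75.3 FPKM, both lowest in Con 2 and highest in Con 3. These are near-identical copies, with 99.2% identity over 2201 bases. The constitutive chaperone Hspa8 was at 552, 513 and 524 FPKM and did not share their range.

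**Figure D5:**
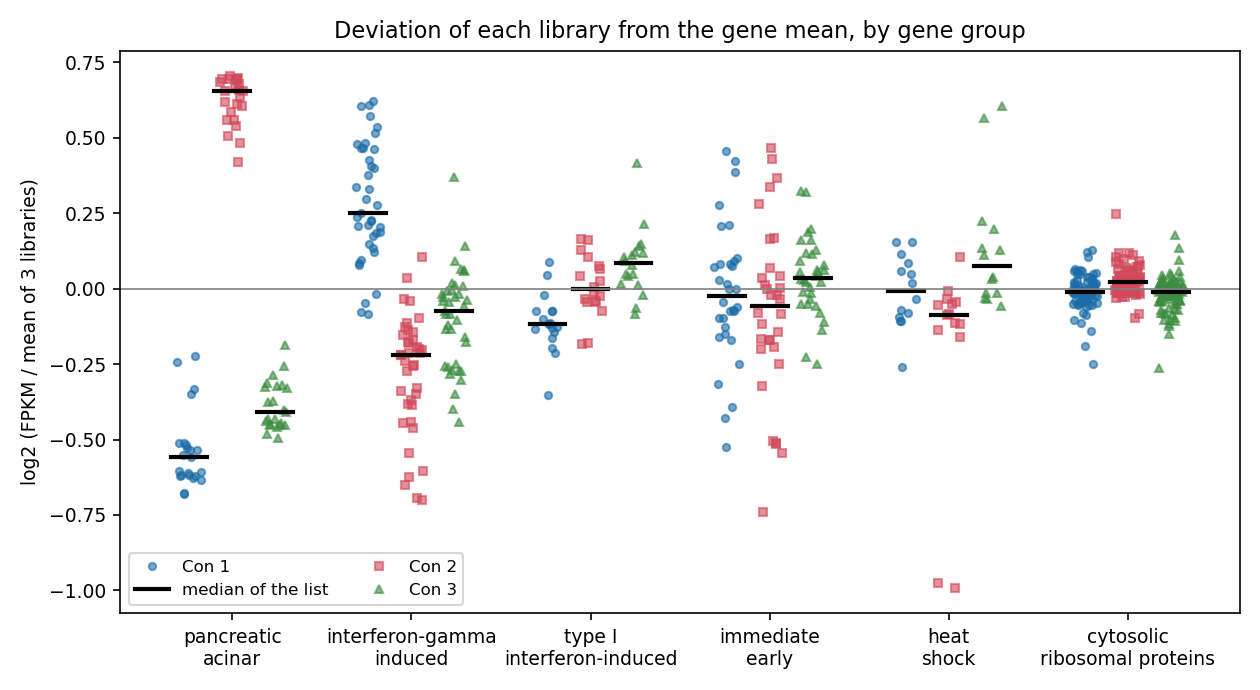
Log2 of each library's FPKM over the mean of the 3 libraries, for genes at a mean of at least 1 FPKM in 6 lists, with a black bar at the median of each list and library. All 23 acinar genes are above 0 in Con 2, 34 of the 39 interferon gamma genes are highest in Con 1 (31.9% over the 5470 genes), both lists having been written with the spread in view, Hspa1a and Hspa1b form the low pair in Con 2, and ribosomal proteins stay near 0.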

How the data were processed

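Polyadenylated RNA of splenic monocytes was sequenced from stranded mRNA libraries, of which the 3 libraries of the water group were analysed. The authors aligned the reads to GRCm38 with HISAT2 2.2.1, handled alignments with SAMtools 1.9, and made the deposited FPKM values per gene with StringTie 2.1.3 and Ballgown. The deposited expected counts per gene were derived by the authors from that output with tximport 1.26.1, so the depth is an estimate. These counts were used here only for depth, for the limits of detection and for the median counts at each level of FPKM. The authors tested counts with DESeq2 1.38.3, and no such test was used here. Levels, shares of summed FPKM, CVs and library ranges were computed in Python 3.11.15 (pandas 2.3.3, numpy 2.4.6, scipy 1.17.1), figures were drawn with matplotlib 3.10.9, and gene classes and coordinates came from GENCODE M21 on GRCm38. The fold range of a gene was (highest + 1)/(lowest + 1), with 1 FPKM added. The spread was taken over genes at a mean of at least 10 FPKM, and the script was tested on simulated data. The genes named were the 30 most abundant protein-coding genes, the 5 markers with the 3 list members nearest above and below each, the up to 6 most abundant members of each of 40 lists with those at 0 in every library, and the 10 protein-coding genes with the highest and the 10 with the lowest CV. Every other gene named was chosen after its values were seen. The members and all lists were chosen with earlier results of these data known, and 6 further lists were written after the spread was seen. With a single group there was no test. The libraries held 43070361 to 59339748 expected counts. Some genes are not reported here by name, though list sums and counts include them.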

Additional observations from a re-analysis of the deposited data

How the results depend on the processing

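Of 107 alternative values, 95 stayed within 1 SD of the reported value, or within 1.5 times for a count of genes or the median CV, and 12 did not. Within that tolerance the 11686 genes at 1 FPKM became 16931 at a threshold of 0.1 FPKM, 13731 at 1 TPM and 9979 among protein-coding genes. Restricting the sums to protein-coding genes gave 30.8% for the share of the top 100 genes, 10.7% for ribosomal proteins, 6.04% for mitochondrially encoded genes and 4.35% for the actin cytoskeleton. Leaving out mitochondrial and globin genes, but not the mitochondrial copies on chromosome 1, gave 28% for the top 100, 10.5% for ribosomal proteins and 4.27% for the actin cytoskeleton. With no filter on low values the median CV was 19.4%. The number of genes with a range of at least 2-fold was 243 at a mean of at least 1 FPKM and 29 among protein-coding genes, and it lay between 16 and 33 when 1 library was left out. The median CV then lay between 4.8% and 5.3%, and fewer libraries give smaller ranges by construction. For the mean of a fixed gene or list, leaving out 1 of 3 libraries, or taking the median library, cannot shift the value by 1 SD. Rescaling to TPM cannot change a ratio within a library, and the filter on shared or low genes removed none from the monocyte lists. Many of the 95 were thus fixed in advance, so that number does not measure robustness. TPM values of list sums and markers were scaled back to the mean summed FPKM before they were compared. The threshold of 1 TPM was applied to unscaled values. Some alternatives were chosen after seeing the data. No paired analysis was possible because only 1 group was described and no test was run. Depth limits genes below 1 FPKM most, and 3 libraries limit every SD.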
